A study of Mus musculus with 9 samples.

Results

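Genes of cholesterol and fatty acid synthesis were described in mouse embryonic stem cells kept in 3 media. They are 35 genes chosen by symbol from the pathways, 20 of the sterol branch and 15 of the fatty acid branch, out of 24819 gene symbols measured. A row for Hmgcs1 was not analysed here, so 34 members had values, 19 of the sterol branch and all 15 of the fatty acid branch. All 34 reached 1 FPKM (fragments per kilobase of transcript, scaled to the library total) in at least 3 of the 9 libraries and were among the 12330 genes tested.

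The cells were of the E14 line, a widely used line of mouse embryonic stem cells, grown on gelatin without any feeder cells named in the labels. EPSCM is expanded potential stem cell medium, whose composition the labels do not give. 2iLIF is N2B27, a defined medium without serum, with leukemia inhibitory factor (LIF) and 2i, the inhibitor pair against MEK and GSK3. ES medium is high-glucose DMEM with fetal bovine serum, L-glutamine, PenStrep, non-essential amino acids, β-mercaptoethanol and LIF. Each medium had 3 libraries of messenger RNA from the same parental line, with no genetic change named, and the labels do not say whether they came from separate cultures. The p-values below therefore measure only the spread between libraries, which may be technical. The media differ in many components at once, and the part of each component in a difference cannot be told apart.

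Cells make cholesterol from acetyl-CoA through mevalonate, farnesyl diphosphate, squalene and lanosterol, and make fatty acids by carboxylating acetyl-CoA to malonyl-CoA and extending the chain on fatty acid synthase. Both branches are transcribed under the SREBP factors, which are held in the endoplasmic reticulum by INSIG proteins when sterols are plentiful and are released when sterols are scarce. SREBP2, encoded by Srebf2, acts mainly on the sterol branch, and SREBP1, encoded by Srebf1, mainly on fatty acid genes. SREBP factors are known to act together with NF-Y, a factor that binds CCAAT boxes.

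Promoter windows from RefSeq (build GRCm38.p6, 250 bases before to 50 after the transcript start) were found for 27 of the 34 members and searched on both strands. The CCAAT box (letters CCAAT) stood in a window of 14 of 15 sterol members and 8 of 12 fatty acid members, against 41.1% of all genes with a window and 43.7% of the tested ones. The only sterol member with a window but without it was Acat2, the thiolase that opens the pathway. The core of the classical sterol regulatory element (TCACNCCAC) was in no window of these 27 members and in 1.44% of all genes, and the E box (CANNTG) was in 11 of 15 and 9 of 12, against 75% of all genes. Such matches describe letters and are not shown to be bound. Windows of 6 members are shown because their levels set the patterns described below: Msmo1, Insig1 and Tm7sf2 rose strongly with the sterol branch, Ebp took a course of its own, and Thrsp and Fasn moved in opposite directions in EPSCM. Capitals mark CCAAT boxes on either strand (written ATTGG on the other strand).
Msmo1 (chr8:64733529-64733828, minus strand): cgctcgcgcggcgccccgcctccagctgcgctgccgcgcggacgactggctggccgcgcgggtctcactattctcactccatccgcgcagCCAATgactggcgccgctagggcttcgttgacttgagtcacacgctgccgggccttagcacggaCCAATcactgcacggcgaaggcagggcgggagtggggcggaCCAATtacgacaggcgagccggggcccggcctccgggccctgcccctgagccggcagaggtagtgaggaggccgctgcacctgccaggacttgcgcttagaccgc
Insig1 (chr5:28071162-28071461, plus strand): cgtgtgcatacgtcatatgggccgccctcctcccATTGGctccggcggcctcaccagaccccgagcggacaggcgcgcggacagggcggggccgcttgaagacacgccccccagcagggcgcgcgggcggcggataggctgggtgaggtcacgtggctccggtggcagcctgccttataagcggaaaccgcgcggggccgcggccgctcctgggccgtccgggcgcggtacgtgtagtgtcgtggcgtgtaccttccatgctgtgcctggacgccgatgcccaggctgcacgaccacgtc
Tm7sf2 (chr19:6067801-6068100, minus strand): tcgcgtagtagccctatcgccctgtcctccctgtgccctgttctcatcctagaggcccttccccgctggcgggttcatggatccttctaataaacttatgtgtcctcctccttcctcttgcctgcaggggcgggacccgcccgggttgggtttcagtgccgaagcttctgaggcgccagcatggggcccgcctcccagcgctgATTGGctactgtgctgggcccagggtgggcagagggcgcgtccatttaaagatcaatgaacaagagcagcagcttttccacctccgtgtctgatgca
Ebp (chrX:8193463-8193762, minus strand): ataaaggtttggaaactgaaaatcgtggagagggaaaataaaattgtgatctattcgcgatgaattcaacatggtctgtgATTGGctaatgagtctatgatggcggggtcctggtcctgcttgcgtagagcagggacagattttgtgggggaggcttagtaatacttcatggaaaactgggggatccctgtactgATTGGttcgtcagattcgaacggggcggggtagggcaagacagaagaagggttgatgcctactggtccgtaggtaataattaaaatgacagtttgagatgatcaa
Thrsp (chr7:97417501-97417800, minus strand): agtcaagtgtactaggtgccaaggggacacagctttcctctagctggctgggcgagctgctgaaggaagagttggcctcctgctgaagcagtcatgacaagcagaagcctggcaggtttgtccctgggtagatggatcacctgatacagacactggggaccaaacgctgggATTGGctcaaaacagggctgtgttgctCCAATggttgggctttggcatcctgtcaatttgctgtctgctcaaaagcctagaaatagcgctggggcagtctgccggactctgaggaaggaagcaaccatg
Fasn (chr11:120824498-120824797, minus strand): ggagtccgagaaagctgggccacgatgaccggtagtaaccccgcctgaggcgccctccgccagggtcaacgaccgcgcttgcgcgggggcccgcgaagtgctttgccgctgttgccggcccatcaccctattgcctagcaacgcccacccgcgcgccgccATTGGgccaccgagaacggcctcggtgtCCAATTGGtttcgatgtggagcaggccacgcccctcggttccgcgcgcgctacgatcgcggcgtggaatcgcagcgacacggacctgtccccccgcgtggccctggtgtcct
Msmo1 holds 3 boxes, which begin 160, 96 and 55 bases before the start. In Fasn 2 boxes on opposite strands share 2 bases, so that 3 boxes are read in 2 stretches of capitals, while Insig1 and Tm7sf2 hold 1 each, at 216 and 47 bases before the start.

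Levels below are FPKM, which is per transcript length and allows levels of different genes to be set side by side, with mean ± SD over 3 libraries. Differences are given ± SE after taking log2(FPKM + 1), a scale on which changes of weakly expressed genes appear too small. Higher or lower is said of genes whose limma adjusted p was below 0.05 and whose log2 difference reached 1, and these are the called genes. In each medium 1 library stood apart from the other 2 (EPSCM replicate 2, 2iLIF replicate 1 and ES replicate 1), with correlations across genes of 0.9855 to 0.9902 against 0.9959 to 0.9967 between the close pairs. In all 3 media, 14 of the 34 members lay lower in the library that stood apart than in the mean of the other 2, and 16 lay above it, against 30.0% and 46.0% of all tested genes. The shift was largest in Acsl3 (-0.69 in EPSCM, -0.49 in 2iLIF, -0.61 in ES) and Idi1 (-0.57, -0.49 and -0.71), and Fdps was at 0.32, 0.32 and 0.30. With the close libraries alone, the numbers of members called were the same in both branches and all 3 comparisons.

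All 6 pluripotency markers were expressed in every medium, at levels that differed between media: they summed to 1431 to 1662 FPKM in EPSCM, 2294 to 2629.9 in 2iLIF and 2607 to 3043 in ES. Pou5f1 was at 627 ± 88.4 FPKM in EPSCM, 1064 ± 129 in 2iLIF and 1352 ± 162 in ES, Sox2 at 208 ± 7.49 FPKM in EPSCM, 181 ± 7.85 in 2iLIF and 254 ± 11.7 in ES, and Nanog at 295 ± 2.17 FPKM in EPSCM, 432 ± 4.82 in 2iLIF and 326 ± 9.25 in ES. The largest difference was in Zfp42, at 163 ± 14.8 FPKM in EPSCM, 404 ± 32.4 in 2iLIF and 534 ± 46.03 in ES, which was called lower in EPSCM than in ES (-1.704 ± 0.09) and than in 2iLIF (-1.303 ± 0.09). Pou5f1 was called lower in EPSCM than in ES (-1.11 ± 0.13), and Sox2, Nanog, Esrrb and Sall4 were called in no comparison; Esrrb was at -0.51 ± 0.09 in EPSCM against ES and -0.73 ± 0.09 in EPSCM against 2iLIF. All 6 markers of hepatocytes and adipocytes, the classical lipogenic cells, stayed under 1 FPKM in every medium, with Fabp4 at 0 in all 9 libraries, and summed to at most 0.295 FPKM in an EPSCM library, 0.234 in a 2iLIF library and 0.623 in an ES library. Of 7 fibroblast markers, Thy1 alone passed 1 FPKM, in EPSCM and ES but not in 2iLIF, Fap was at 0 in all 9 libraries, and the list summed to 5.68 to 7.28 FPKM in EPSCM, 0.602 to 0.700 in 2iLIF and 13.9 to 16.1 in ES. Primitive endoderm markers summed to 9.77 to 10.5 FPKM in EPSCM, 2.99 to 3.38 in 2iLIF and 5.76 to 6.45 in ES, trophoblast markers to 42.2 to 51.3, 68.5 to 79.5 and 24.7 to 28, and neural markers to 25.5 to 29.2, 21.1 to 24.6 and 64.7 to 72.5. Of these, 3, 6 and 5 of 7 primitive endoderm markers, 4, 4 and 5 of 7 trophoblast markers and 3 of 6 neural markers stayed under 1 FPKM in EPSCM, 2iLIF and ES. The sums hide opposite directions: Gata4 and Gata6 were called higher and Sox7 lower in EPSCM than in ES (1.21 ± 0.098, 1.32 ± 0.06 and -1.88 ± 0.05). Most of the trophoblast sum was Tfap2c in EPSCM (37.3 FPKM) and Krt8 in 2iLIF (47.6 FPKM). Krt8 and Cdx2 were called lower in EPSCM than in 2iLIF (-2.77 ± 0.0998 and -1.89 ± 0.05). Both were called higher in 2iLIF than in ES (2.62 ± 0.0998 and 1.796 ± 0.05). Hand1 and Gata3 were not tested and had their highest means in EPSCM (0.866 and 0.613 FPKM). Tubb3 made most of the neural sum in ES (62.9 FPKM). In EPSCM against ES Tubb3 was called lower (-1.89 ± 0.09) and Nes higher (1.48 ± 0.07). The part of these markers in the results was not tested, and in bulk RNA fewer cells of a type and less RNA per cell cannot be told apart.

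Both branches were lowest in ES, but they parted between the other media. Summed over its 19 genes, the sterol branch was at 1021 ± 13.1 FPKM in EPSCM, 837 ± 24.6 in 2iLIF and 606 ± 24.3 in ES (SD, n = 3 libraries), with no overlap between media. The largest FPKM gaps between EPSCM and 2iLIF were in Msmo1 (138 against 76.9), Dhcr7 (81.6 against 33.7) and Srebf2 (134 against 88.3). In that comparison 12 of 19 members had a positive log2 difference, with a branch median of 0.15. The fatty acid branch, summed over 15 genes, was at 869.7 ± 7.66 FPKM in EPSCM, 1301 ± 9.41 in 2iLIF and 522 ± 4.58 in ES. Scd2 alone gave 264 ± 2.75 of the EPSCM sum, 556 ± 8.26 of the 2iLIF sum and 155 ± 2.96 of the ES sum. Most of the gap between EPSCM and 2iLIF came from Scd1 and Scd2: without them the other 13 genes summed to 513 ± 5.34 FPKM in EPSCM, 579.8 ± 2.67 in 2iLIF and 338 ± 4.99 in ES, still without overlap. Counted gene by gene, ES was the lowest medium for 13 of 19 sterol members and 11 of 15 fatty acid members. The share of all tested genes that were lowest in ES was 38.2%. EPSCM was the highest for 12 of 19 sterol members, 8 of them without overlap to the next medium, where 39.0% of all tested genes were highest in EPSCM and 26.7% were so without overlap. In the fatty acid branch 2iLIF was the highest for 8 of 15 members, 5 of them without overlap, and EPSCM for the other 7, 3 of them without overlap. Of all tested genes 29.9% were highest in 2iLIF, 17.6% without overlap.

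**Figure D1:**
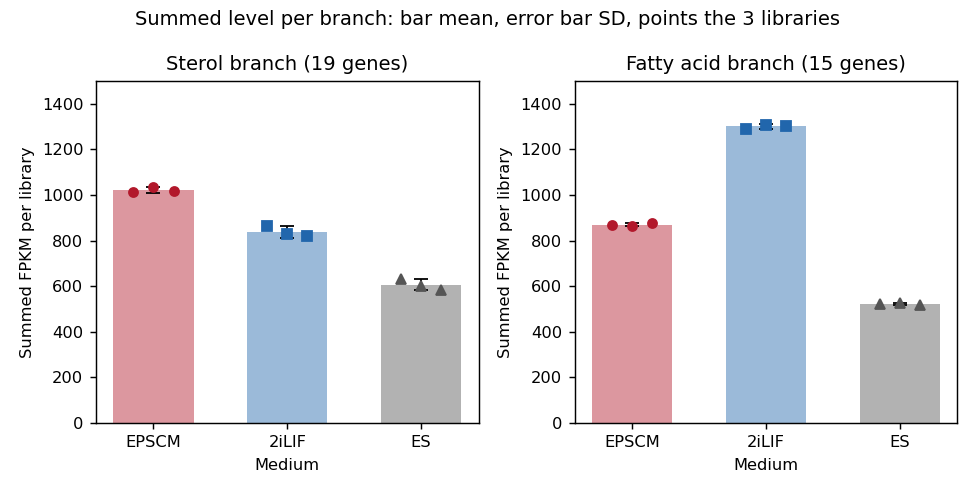
Summed FPKM per library of the sterol branch (left) and the fatty acid branch (right) by medium; bars are means, error bars SD and points the 3 libraries. The sterol sums run 1011 to 1036 in EPSCM, 818 to 865 in 2iLIF and 584 to 632 in ES, while the fatty acid sums peak in 2iLIF at 1290.1 to 1308.

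Between EPSCM and ES, the comparison that asks what the expanded potential medium changes against serum and LIF, the sterol branch had 6 higher and 0 lower among 19 (Insig1, Stard4, Cyp51, Tm7sf2, Msmo1 and Dhcr7). The fatty acid branch had 6 higher (Thrsp, Me1, Scd1, Fads1, Fads2 and Acsl3) and 1 lower (Fasn) among 15. Over all 12330 tested genes 19.7% were called, 11.7% higher and 7.97% lower. The median difference was 0.67 in the sterol branch and 0.83 in the fatty acid branch, against 0.09 over all tested genes. Libraries of EPSCM and ES did not overlap for 15 of 19 and 14 of 15 members, where the share over all tested genes was 74.1%.

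Between EPSCM and 2iLIF few members were called. Dhcr7 was higher and Ebp lower in the sterol branch, and Thrsp was higher and Fasn and Scd2 lower in the fatty acid branch, where 16.1% of all tested genes were called (10.1% higher, 5.91% lower). The median was 0.15 in the sterol branch and -0.0015 in the fatty acid branch, against 0.03 over all tested genes. Libraries did not overlap for 12 of 19 and 10 of 15 members, beside 71.1% of all tested genes.

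Between 2iLIF and ES, Ebp, Tm7sf2 and Insig1 were higher in the sterol branch. In the fatty acid branch 7 of 15 were higher (Scd1, Scd2, Me1, Elovl6, Fads2, Fads1 and Srebf1), and no member of either branch was lower. Of all tested genes 14.7% were called, 7.62% higher and 7.12% lower. Medians were 0.42 and 0.81, against 0.03 over all tested genes, and libraries did not overlap for 16 of 19 and 13 of 15 members, beside 70.6%. Any difference among the 3 media passed limma's F test for 32 of 34 members, all but Idi1 and Mvd, but 85.5% of all tested genes also passed. The 3 comparisons share libraries and are not independent of each other.

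**Figure D2:**
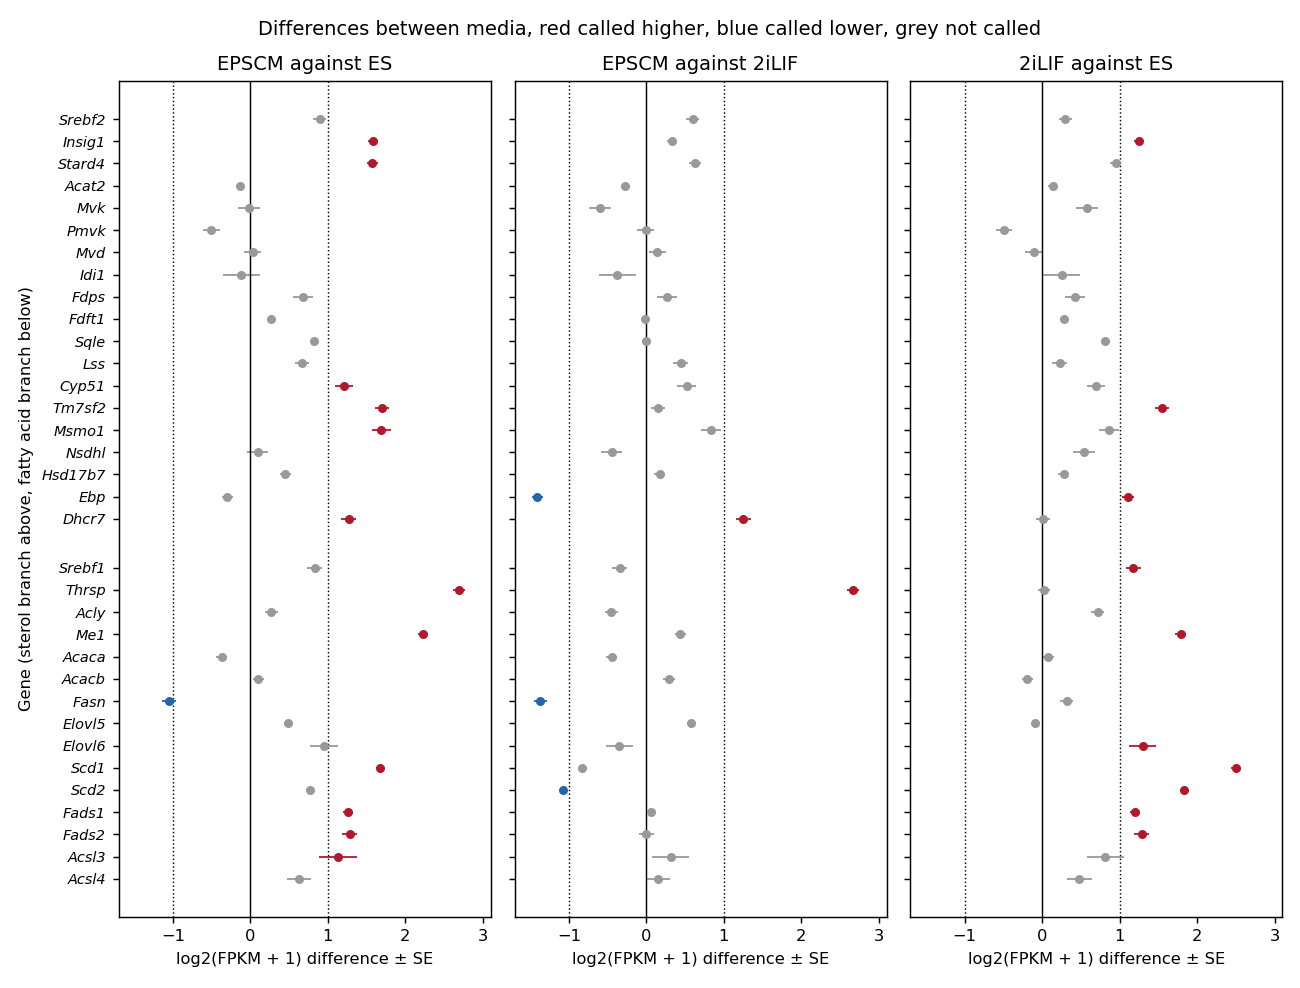
Log2(FPKM + 1) difference ± SE of each of the 34 members in the 3 comparisons, sterol branch above and fatty acid branch below, with dotted lines at the limit of 1; red was called higher, blue lower and grey was not called. Most points lie right of 0 against ES, while against 2iLIF they spread to both sides and only Dhcr7, Thrsp, Ebp, Fasn and Scd2 were called.

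Among the control genes of the sterol branch, Srebf2 was measured at 127, 148 and 128 FPKM in EPSCM, 96.1, 84.2 and 84.7 in 2iLIF and 77.3, 68.9 and 68.9 in ES. The EPSCM libraries lay above all others, and the 2iLIF libraries above ES. Its differences of 0.89 ± 0.08 for EPSCM against ES, 0.598 ± 0.08 for EPSCM against 2iLIF and 0.296 ± 0.08 for 2iLIF against ES passed the adjusted p (1.23e-05, 2.03e-04 and 0.0121) but not the fold limit. With quantile normalization the first was called, at 1.04. Insig1, which is both a retainer of SREBP and one of its targets, had 94.4, 83.6 and 96.5 FPKM in EPSCM, 68.6, 74.9 and 73.2 in 2iLIF and 29.2, 30.1 and 30.3 in ES. No library of one medium overlapped another, and EPSCM exceeded ES 3.06-fold (1.58 ± 0.07, adjusted p = 9.14e-08) and 2iLIF exceeded ES 2.42-fold (1.25 ± 0.07, adjusted p = 3.76e-07). The EPSCM excess over 2iLIF was 0.34 ± 0.07 and not called. Stard4, a cytosolic carrier of cholesterol, was at 31.7, 28.2 and 31.2 FPKM in EPSCM, 18.2, 19.96 and 19.7 in 2iLIF and 8.78, 10.2 and 9.61 in ES. It followed the same order, with EPSCM 3.18-fold above ES (1.57 ± 0.07, adjusted p = 1.71e-07), and 2iLIF against ES stayed just short of the fold limit at 0.95 ± 0.07 (1.01 and called with a pseudocount of 0.1).

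The enzymes that lead from acetyl-CoA to the isoprenoid units were called in no comparison. Acat2, the cytosolic thiolase, was at 41.8 ± 2.18 FPKM in EPSCM, 50.5 ± 1.38 in 2iLIF and 45.9 ± 1.85 in ES. Mevalonate kinase (Mvk) was at 16.8 ± 2.63 FPKM in EPSCM, 25.9 ± 4.22 in 2iLIF and 16.96 ± 2.23 in ES, with the 2iLIF libraries above all others. Phosphomevalonate kinase (Pmvk) was at 38.2 ± 2.17 FPKM in EPSCM, 38.5 ± 4.41 in 2iLIF and 54.8 ± 7.05 in ES, with all ES libraries on top and differences of -0.504 ± 0.11 for EPSCM and -0.495 ± 0.11 for 2iLIF. The decarboxylase Mvd stood at 28.2 ± 2.87 FPKM in EPSCM, 25.5 ± 2.61 in 2iLIF and 27.7 ± 3.62 in ES and the isomerase Idi1 at 6.59 ± 1.61 FPKM in EPSCM, 8.79 ± 1.79 in 2iLIF and 7.33 ± 2.15 in ES, and for both the libraries of all 3 media overlapped. Acat2 has a close relative in sequence, Acat3, which holds 50.5% of the 31-base words of its transcript, and 22.1% of those of Idi1 occur in other genes, so their single values are uncertain.

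The steps from farnesyl diphosphate to lanosterol had all EPSCM libraries above those of ES, but no gene was called. Fdps, which makes farnesyl diphosphate, was at 155 ± 20.5 FPKM in EPSCM, 129 ± 17.1 in 2iLIF and 96.6 ± 12.04 in ES, with 0.68 ± 0.13 for EPSCM against ES. Of the 31-base words of its transcript 89.7% occur in transcripts of other annotated genes, led by Gm43738, so reads may be divided between them. Squalene synthase, Fdft1, was at 66.2 ± 1.24 FPKM in EPSCM, 67.01 ± 2.63 in 2iLIF and 54.96 ± 1.74 in ES, the smallest difference of the 4 (0.26 ± 0.05 for EPSCM against ES). Fdft1 lies on chromosome 14, whose genes had a median difference of -0.06 for EPSCM against ES and -0.17 for 2iLIF against ES, beside 0.11 and 0.04 on the autosomes other than 1 and 14, and it overlaps 774 bases of Ctsb on the other strand. Squalene epoxidase, Sqle, a rate-limiting step, had 67.6, 62.7 and 68.3 FPKM in EPSCM, 66.1, 67.1 and 65.1 in 2iLIF and 35.8, 37.02 and 38.6 in ES. Its EPSCM and 2iLIF libraries overlapped and both lay 1.78-fold and 1.78-fold above ES (0.82 ± 0.05 and 0.82 ± 0.05). Lanosterol synthase, Lss, was at 29.2 ± 3.18 FPKM in EPSCM, 21.2 ± 2.06 in 2iLIF and 17.99 ± 1.11 in ES and its EPSCM libraries did not overlap 2iLIF.

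The largest sterol difference in each comparison was of an enzyme after lanosterol (Tm7sf2 in EPSCM and in 2iLIF against ES, Ebp between EPSCM and 2iLIF). Msmo1, the oxidase that removes methyl groups from sterols, had 146, 118 and 149 FPKM in EPSCM, 64.99, 82.9 and 82.8 in 2iLIF and 36.9, 45.6 and 43.3 in ES. The 3 media formed separate steps, with EPSCM 3.29-fold above ES (1.69 ± 0.13, adjusted p = 3.10e-06) and differences of 0.83 ± 0.13 and 0.86 ± 0.13 for EPSCM against 2iLIF and 2iLIF against ES, neither called. Cyp51, the lanosterol demethylase, kept this order at 40.9, 31.7 and 39.2 FPKM in EPSCM, 22.7, 26.7 and 27.5 in 2iLIF and 13.9, 17.1 and 15.5 in ES. Only EPSCM against ES was called (1.21 ± 0.12, adjusted p = 1.47e-05).

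Tm7sf2, a sterol reductase, had 20.6, 22.6 and 19.4 FPKM in EPSCM, 20.3, 16.7 and 18.97 in 2iLIF and 6.34, 5.27 and 5.62 in ES. EPSCM and 2iLIF overlapped and lay 3.63-fold and 3.25-fold above ES (1.698 ± 0.09, adjusted p = 3.95e-07, and 1.54 ± 0.09, adjusted p = 8.57e-07). It shares 532 bases of exon with Vps51 on the same strand, so part of its reads may be assigned to either gene. Dhcr7, the reductase that yields cholesterol at the end of one route, had 76.3, 90.8 and 77.6 FPKM in EPSCM, 37.5, 31.1 and 32.3 in 2iLIF and 35.9, 31.9 and 32.1 in ES. It was raised in EPSCM alone among these media, 2.45-fold above ES (1.27 ± 0.09, adjusted p = 2.71e-06) and 2.42-fold above 2iLIF (1.25 ± 0.09, adjusted p = 3.36e-06), while 2iLIF and ES overlapped (0.01 ± 0.09).

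Ebp, the sterol isomerase, took another course, at 14.3, 15.6 and 13.4 FPKM in EPSCM, 40.8, 40.7 and 38.2 in 2iLIF and 18.9, 18.4 and 16.7 in ES. All 3 EPSCM libraries were below all 2iLIF and ES libraries, and 2iLIF was above both. It was lower in EPSCM than in 2iLIF (-1.41 ± 0.07, adjusted p = 2.83e-07), higher in 2iLIF than in ES (1.11 ± 0.07, adjusted p = 1.40e-06) and at -0.300 ± 0.07 for EPSCM against ES, not called. Nsdhl and Hsd17b7, which act with Msmo1 in removing methyl groups, were at 17.4 ± 3.16 FPKM in EPSCM, 23.9 ± 1.82 in 2iLIF and 16.1 ± 2.02 in ES, and at 7.04 ± 0.498 FPKM in EPSCM, 6.13 ± 0.371 in 2iLIF and 4.88 ± 0.255 in ES. Neither was called in any comparison. Ebp and Nsdhl lie on the X chromosome, whose genes had medians of 0.205 and 0.21 in EPSCM and in 2iLIF against ES and of -0.06 between EPSCM and 2iLIF. Hsd17b7 lies on chromosome 1, with medians of -0.29, -0.28 and -0.05 in the same order.

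**Figure D3:**
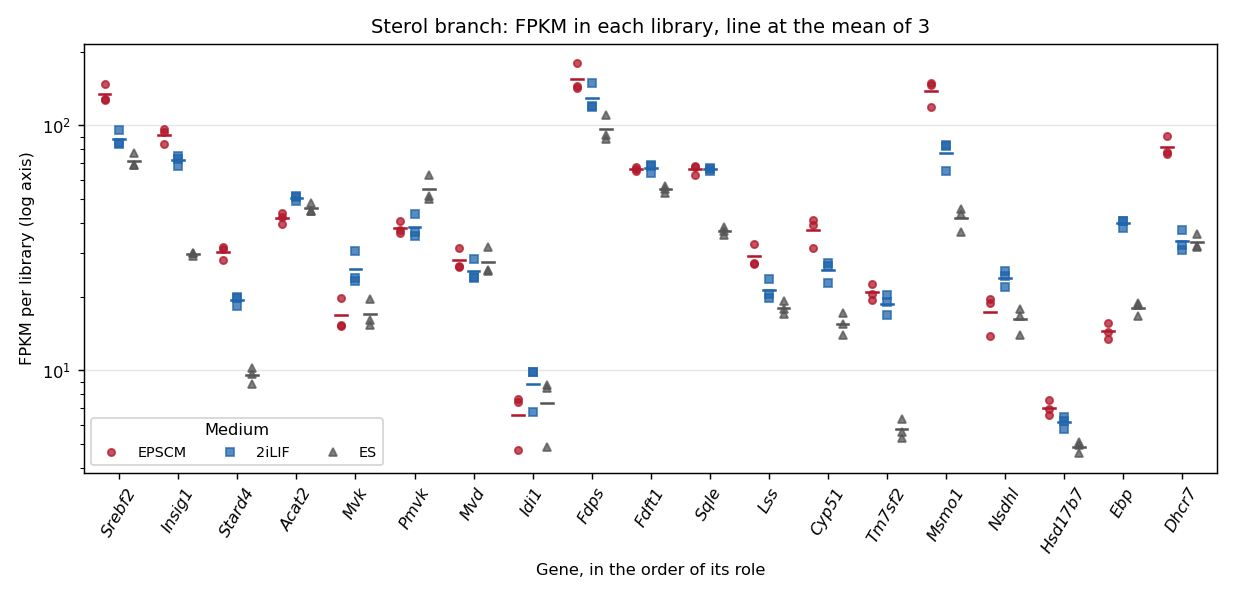
FPKM of the 19 sterol members in each library on a log axis, in the order of control genes, early steps and late steps; points are libraries and lines means of 3. Insig1, Stard4, Cyp51 and Msmo1 step down through EPSCM, 2iLIF and ES, Dhcr7 is raised in EPSCM alone, and Ebp is highest in 2iLIF at 38.2 to 40.8 FPKM.

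Of the control genes of fatty acid synthesis, Srebf1 was measured at 34.7, 41.9 and 35.7 FPKM in EPSCM, 52.3, 45.4 and 45.5 in 2iLIF and 22.7, 19.3 and 19.7 in ES. It was highest in 2iLIF, with no overlap between media, and only 2iLIF against ES was called (1.18 ± 0.096, adjusted p = 6.09e-06), with 0.83 ± 0.096 for EPSCM against ES and -0.35 ± 0.096 for EPSCM against 2iLIF. This differs from Srebf2, whose highest medium was EPSCM. Thrsp, a small protein known from lipogenic tissues such as liver, fat and mammary gland, had 14.7, 14.8 and 14.01 FPKM in EPSCM, 1.59, 1.39 and 1.35 in 2iLIF and 1.64, 1.39 and 1.18 in ES. It was 10.3-fold higher in EPSCM than in ES (2.69 ± 0.08, adjusted p = 1.70e-08) and 10.03-fold higher than in 2iLIF (2.66 ± 0.08, adjusted p = 1.69e-08), while 2iLIF and ES overlapped. Its fold was the largest of all members in both comparisons.

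The enzymes that supply carbon and reducing power parted, Me1 being called and Acly not. Acly, which splits citrate into cytosolic acetyl-CoA, was at 122 ± 11 FPKM in EPSCM, 167 ± 11.5 in 2iLIF and 101 ± 7.55 in ES, with the 2iLIF libraries on top. Me1, the cytosolic malic enzyme that yields NADPH, had 39.2, 35.05 and 38.4 FPKM in EPSCM, 25.8, 28.02 and 28.5 in 2iLIF and 6.69, 7.51 and 7.51 in ES. EPSCM was 5.19-fold above ES (2.23 ± 0.07, adjusted p = 2.41e-08) and 2iLIF 3.79-fold above ES (1.79 ± 0.07, adjusted p = 6.26e-08), and EPSCM exceeded 2iLIF by 0.44 ± 0.07, not called. Of the 31-base words of its transcript 34.2% occur in other annotated genes, led by Gm7049.

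The synthase itself went down in EPSCM. Fasn, which carries out all rounds of chain building, had 27.9, 33.7 and 28.8 FPKM in EPSCM, 85.4, 76.1 and 75.9 in 2iLIF and 68.6, 60.7 and 60.9 in ES. The EPSCM libraries were below all others, at 0.381 times the 2iLIF mean (-1.37 ± 0.09, adjusted p = 1.17e-06) and 0.475 times the ES mean (-1.05 ± 0.09, adjusted p = 5.49e-06). The second call lies close to the fold limit and was lost with quantile normalization (-0.97), without EPSCM replicate 1 (-0.9998) or without ES replicate 1 (-0.99). Acaca, the cytosolic acetyl-CoA carboxylase that feeds it, was at 7.69 ± 0.655 FPKM in EPSCM, 10.8 ± 0.4898 in 2iLIF and 10.2 ± 0.498 in ES, its EPSCM libraries below all others but short of the limit (-0.37 ± 0.07 against ES and -0.45 ± 0.07 against 2iLIF). Acacb, the carboxylase at mitochondria, whose product restrains fatty acid import, was at 5.16 ± 0.379 FPKM in EPSCM, 4.03 ± 0.258 in 2iLIF and 4.75 ± 0.319 in ES. Of the Acaca words 56.8% occur in Gm5182. The Acaca level was 1.5 ± 0.226 times that of Acacb in EPSCM, 2.70 ± 0.275 times in 2iLIF and 2.16 ± 0.244 times in ES.

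The desaturases, which place double bonds in the chains, were all 4 called higher in 2iLIF than in ES, and in EPSCM than in ES all but Scd2. Scd1 had 93.3, 91.02 and 93.6 FPKM in EPSCM, 160.4, 171 and 163 in 2iLIF and 26.6, 30.04 and 28.6 in ES. The media did not overlap, and Scd1 was 5.802-fold higher in 2iLIF than in ES (2.496 ± 0.06, adjusted p = 4.08e-09) and 3.26-fold higher in EPSCM than in ES (1.67 ± 0.06, adjusted p = 3.55e-08). The difference between EPSCM and 2iLIF was -0.82 ± 0.06, not called. Scd2, the paralog known from brain, had 266, 261 and 265 FPKM in EPSCM, 547, 558 and 563 in 2iLIF and 152, 157 and 156 in ES. It rose in 2iLIF against ES (1.84 ± 0.04, adjusted p = 5.34e-09), was lower in EPSCM than in 2iLIF (-1.07 ± 0.04, adjusted p = 8.98e-08), and differed by 0.76 ± 0.04 between EPSCM and ES, not called. The ratio of Scd2 to Scd1 levels was 2.85 ± 0.0204 in EPSCM, 3.38 ± 0.107 in 2iLIF and 5.47 ± 0.232 in ES, with no overlap between media. Of the 31-base words of Scd1 and Scd2, 8.2% and 6.9% occur in other genes, mainly of the Scd family.

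Fads1 and Fads2, neighbours on chromosome 19 that desaturate polyunsaturated chains, had like differences. Fads1 had 50.1, 45.7 and 50.6 FPKM in EPSCM, 43.3, 48.4 and 48.1 in 2iLIF and 19.1, 20.1 and 20.1 in ES, and Fads2 had 50.5, 59.2 and 51.8 FPKM in EPSCM, 59.1, 50.6 and 51.9 in 2iLIF and 24.3, 19.9 and 20.6 in ES. For both, EPSCM and 2iLIF overlapped and lay above ES, and the library that stands apart had the highest Fads2 value of its medium. Differences against ES were 1.26 ± 0.06 and 1.28 ± 0.097 in EPSCM (adjusted p = 2.79e-07 and adjusted p = 2.98e-06) and 1.195 ± 0.06 and 1.28 ± 0.097 in 2iLIF (adjusted p = 4.42e-07 and adjusted p = 3.80e-06).

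The elongases parted. Elovl6, which extends saturated chains, had 54.1, 41.9 and 56.6 FPKM in EPSCM, 52.8, 71.7 and 70.6 in 2iLIF and 20.4, 29.8 and 27.7 in ES. It was called in 2iLIF against ES (1.296 ± 0.18, adjusted p = 1.70e-04), and in EPSCM against ES it was at 0.95 ± 0.18, short of the limit, which it passed without EPSCM replicate 2 (1.08), ES replicate 2 (1.05) or ES replicate 3 (1.002). Elovl5, which extends polyunsaturated chains, was at 55.4 ± 1.05 FPKM in EPSCM, 36.9 ± 0.676 in 2iLIF and 39.3 ± 1.76 in ES, with all EPSCM libraries on top but not called (0.49 ± 0.05 against ES, 0.57 ± 0.05 against 2iLIF).

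Of the acyl-CoA synthetases, which activate fatty acids, Acsl3 had 49.1, 30.6 and 50.8 FPKM in EPSCM, 26.8, 38.1 and 38.1 in 2iLIF and 13.99, 22.3 and 21.4 in ES. EPSCM libraries lay above the ES ones and overlapped 2iLIF, and the call against ES (1.13 ± 0.24, adjusted p = 0.00227) was lost without ES replicate 1 (0.93). The lowest value of each medium was in the library that stands apart. Acsl3 lies on chromosome 1, whose genes had a median of -0.29 in this comparison, and shares 244 exon bases with Utp14b. Acsl4, which prefers arachidonic acid and lies on the X chromosome, was at 6.303 ± 1.36 FPKM in EPSCM, 5.54 ± 0.832 in 2iLIF and 3.69 ± 0.542 in ES and was not called.

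**Figure D4:**
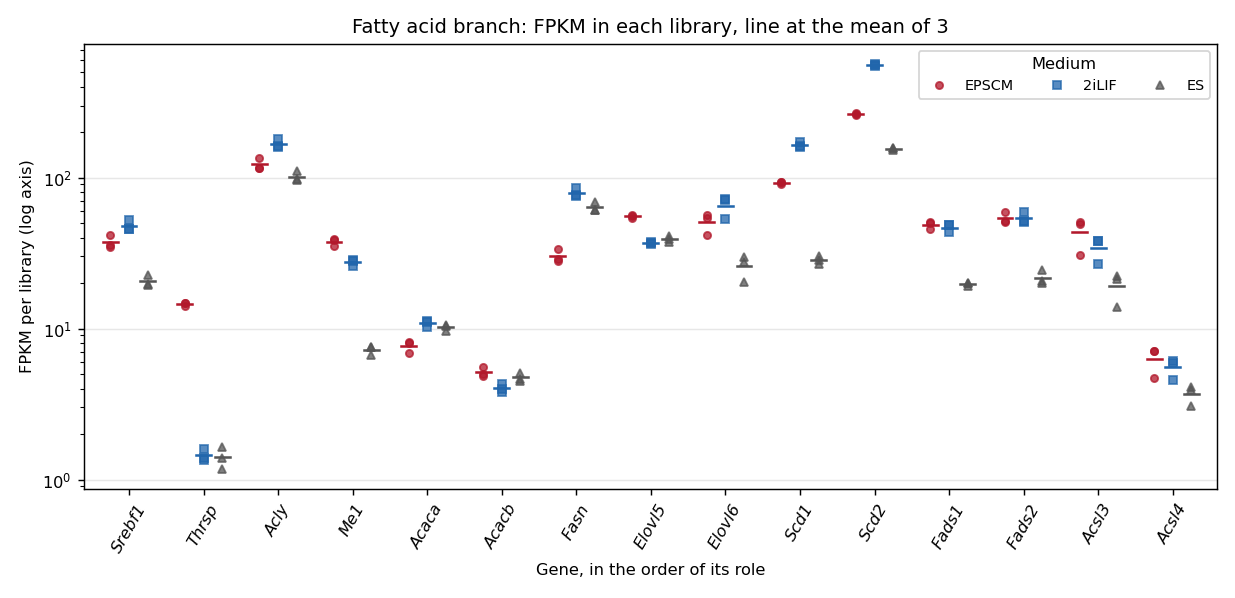
FPKM of the 15 fatty acid members in each library on a log axis, in the order of control genes, supply, synthesis, elongation, desaturation and activation; points are libraries and lines means of 3. Thrsp is raised in EPSCM alone, at 14.01 to 14.8 FPKM, Fasn is lowest there, at 27.9 to 33.7, and Scd1 and Scd2 peak in 2iLIF.

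Other genes of lipid metabolism, 84 in 5 lists that hold no member, were counted in the same fit. In the list of sterol synthesis and SREBP control, 12 genes were tested. Called were 16.7% of them in EPSCM against ES, 8.33% in EPSCM against 2iLIF and 8.33% in 2iLIF against ES. The shares over all tested genes were 19.7%, 16.1% and 14.7%. Of the genes of sterol synthesis and SREBP control outside the members, Acat1, the mitochondrial thiolase, was at 15.4 ± 0.322 FPKM in EPSCM, 7.01 ± 0.0874 in 2iLIF and 6.99 ± 0.743 in ES, 2.203-fold above ES and 2.196-fold above 2iLIF (1.04 ± 0.07 and 1.03 ± 0.07), and was called in both comparisons. Its call against ES was lost with quantile normalization (0.91), at the same median ratio (0.95) and without ES replicate 1 (0.99), and its call against 2iLIF at the same median ratio (0.99). The late enzyme Sc5d was not called, at 13.3 ± 3.09 FPKM in EPSCM, 12.6 ± 3.05 in 2iLIF and 7.54 ± 1.47 in ES.

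Genes of cholesterol export, storage and the LXR receptors had 6 higher and 1 lower among 12 in EPSCM against ES. They had 4 higher and 2 lower in EPSCM against 2iLIF, and 3 higher and 0 lower in 2iLIF against ES. These are 58.3%, 50% and 25% of the list, beside 19.7%, 16.1% and 14.7% of all tested genes. The exporter Abca1, a classical LXR target, had 0.917, 0.902 and 1.03 FPKM in EPSCM, 8.17, 8.69 and 8.33 in 2iLIF and 3.72, 4.26 and 4.19 in ES. It was lower in EPSCM than in ES (-1.37 ± 0.06, adjusted p = 1.64e-07) and than in 2iLIF (-2.27 ± 0.06, adjusted p = 1.23e-08). Npc2, which moves cholesterol out of lysosomes, was at 157 ± 14.6 FPKM in EPSCM, 201 ± 18.95 in 2iLIF and 36.6 ± 4.095 in ES, and Scarb1, a receptor for high-density lipoprotein, at 75.9 ± 6.57 FPKM in EPSCM, 32.96 ± 2.71 in 2iLIF and 20.96 ± 1.67 in ES. Both were called higher in EPSCM than in ES (2.07 ± 0.10 and 1.81 ± 0.09). Npc2 was also called higher in 2iLIF than in ES (2.425 ± 0.10), and Scarb1 higher in EPSCM than in 2iLIF (1.18 ± 0.09). Soat1, which stores cholesterol as ester and lies on chromosome 1, was at 12.7 ± 2.82 FPKM in EPSCM, 4.04 ± 0.759 in 2iLIF and 5.42 ± 0.943 in ES. It was called higher in EPSCM than in 2iLIF (1.43 ± 0.18, adjusted p = 1.05e-04) and than in ES (1.08 ± 0.18). The call against ES was lost with quantile normalization (0.93), at the same median ratio (0.994), without EPSCM replicate 3 (0.97) and without ES replicate 1 (0.95). Lipa, the lysosomal lipase, was at 8.299 ± 1.198 FPKM in EPSCM, 2.68 ± 0.177 in 2iLIF and 2.695 ± 0.276 in ES and was called in EPSCM against both other media. Apoe, the lipoprotein apolipoprotein E, and Mylip, a ubiquitin ligase and known LXR target, were called higher in 2iLIF than in ES (1.45 ± 0.13 and 1.42 ± 0.06). Apoe was also called higher in EPSCM than in ES (1.31 ± 0.13), and its EPSCM and 2iLIF libraries overlapped. Mylip was not called in EPSCM against ES (0.85 ± 0.06).

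Among 20 other tested genes of fatty acid synthesis, 5 were higher and 1 lower in EPSCM against ES. The counts were 5 higher and 1 lower in EPSCM against 2iLIF, and 2 higher and 1 lower in 2iLIF against ES. Called genes were thus 30%, 30% and 15% of the list, beside 19.7%, 16.1% and 14.7% of all tested genes. Acss2, which makes acetyl-CoA from acetate, had 25.2, 28.6 and 25.2 FPKM in EPSCM, 11.4, 10.1 and 10.2 in 2iLIF and 4.46, 4.904 and 3.86 in ES, a separate step for each medium and a call in all 3 comparisons, though 2iLIF against ES (1.103 ± 0.09) was lost with quantile normalization (0.97). Mlxipl, the carbohydrate-sensing factor ChREBP, was at 6.83 ± 0.437 FPKM in EPSCM, 1.72 ± 0.207 in 2iLIF and 1.37 ± 0.223 in ES, so that like Thrsp it was called higher in EPSCM against both other media (1.73 ± 0.09 and 1.53 ± 0.09). Elovl2, an elongase of polyunsaturated chains, was called higher in EPSCM than in 2iLIF (1.602 ± 0.14) and than in ES (1.14 ± 0.14). The second call was lost with quantile normalization (0.96). Tecr, which closes each elongation round, was called higher in EPSCM than in ES (1.38 ± 0.12) and than in 2iLIF (1.05 ± 0.12). Its call against 2iLIF was lost at the same median ratio (0.9973), without EPSCM replicate 2 (0.94) and without 2iLIF replicate 3 (0.9965). The elongase Elovl7 was higher in 2iLIF than in ES (1.13 ± 0.28), a call lost without ES replicate 1 (0.895). Pgd, an NADPH-forming enzyme of the pentose phosphate pathway, was at 62.5 ± 4.44 FPKM in EPSCM, 177 ± 10.4 in 2iLIF and 112 ± 7.59 in ES and was lower in EPSCM than in 2iLIF (-1.49 ± 0.07, adjusted p = 2.71e-07). Acsl5 was lower in both other media than in ES, at 1.63 ± 0.151 FPKM in EPSCM, 1.64 ± 0.194 in 2iLIF and 4.501 ± 0.729 in ES; its calls were lost without ES replicate 2 (-0.99 for EPSCM and -0.98 for 2iLIF), and for 2iLIF also without 2iLIF replicate 1 (-0.998).

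**Figure D5:**
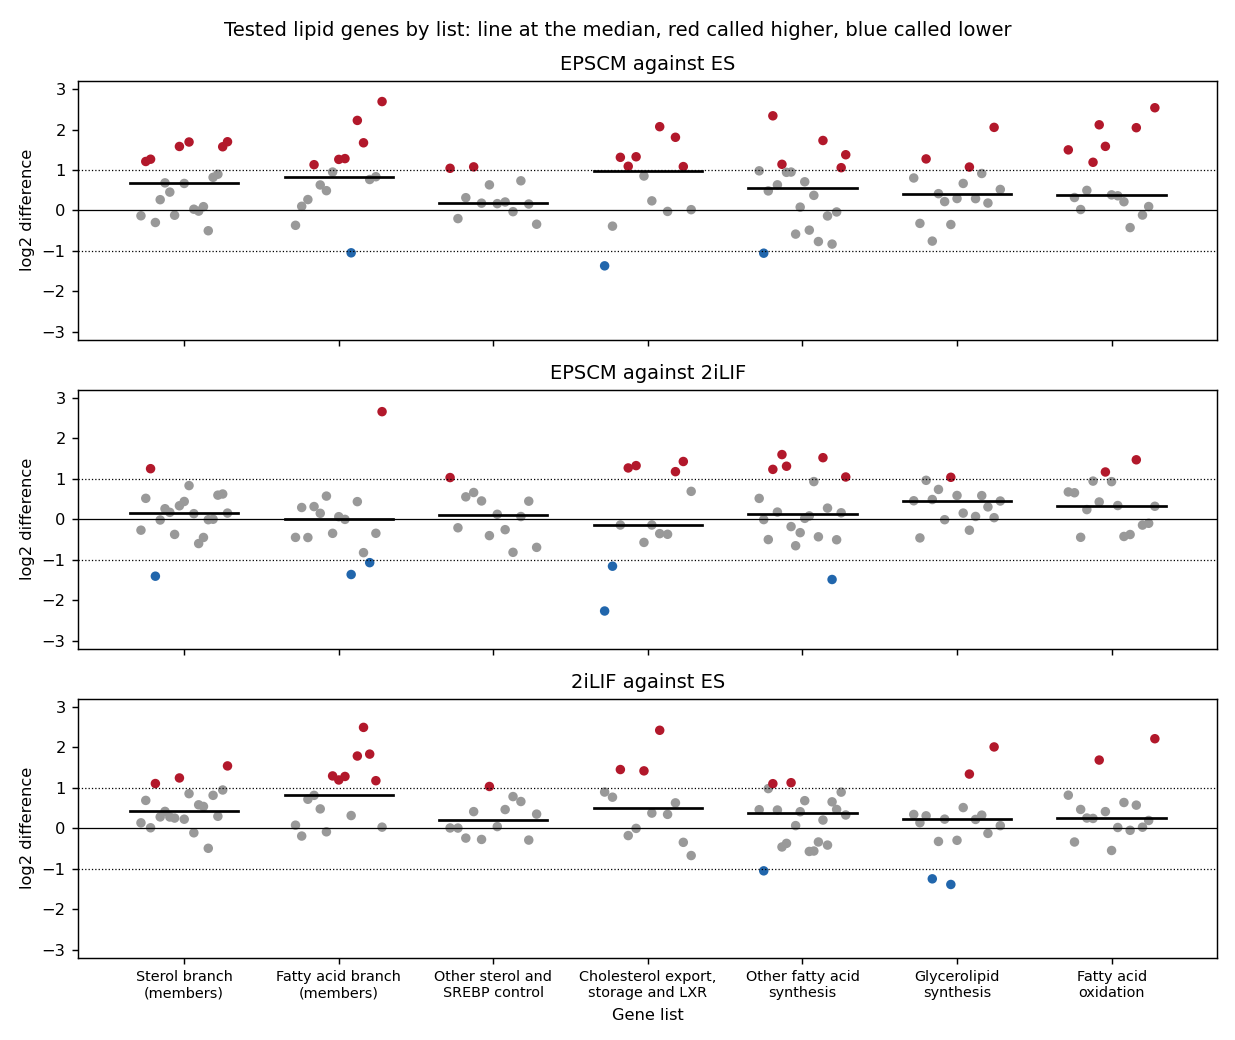
Log2(FPKM + 1) differences of the tested members and of the 5 other lipid gene lists in the 3 comparisons; each point is a gene, lines are list medians, dotted lines the limit of 1, red called higher, blue called lower and grey not called. Medians of both member branches lie above 0 against ES (0.67 and 0.83 for EPSCM, 0.42 and 0.81 for 2iLIF) and near 0 between EPSCM and 2iLIF.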

How the data were processed

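RNA of E14 cells in EPSCM, 2iLIF and ES medium was measured in 3 libraries each. The authors deposited 1 FPKM value per gene and library, made with STAR and Cuffnorm against mm9, per the submitters' processing notes; tool versions, gene annotation, between-library scaling, multi-matching reads and strand settings were not given in the sources used here. Libraries were stranded and prepared after selection of messenger RNA, per the labels' protocols. FPKM divides by length and library total, so abundant genes can shift all others. The table holds no read counts. Steps between its lowest values were too blurred to give each library's depth (score 0.117 to 0.226, with 1 for exact steps), so depth is unknown; library sums were 546636 to 600728 FPKM. Every column belongs to 1 sample.

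From these values log2(FPKM + 1) was computed for 12330 of 24819 genes with at least 1 FPKM in 3 libraries. One limma model (limma 3.58.1, R 4.3.3, trended prior) over all 9 libraries gave the 3 comparisons, with Benjamini-Hochberg adjustment over all tested genes. Data of EPSCM against ES were simulated over 12330 genes. Called were 50 of 50 genes changed by 2 on the log2 scale, 49 of 50 by 1.5 and 28 of 50 by 1, the limit. Of 12130 unchanged genes 1 was called. The changed genes were drawn only from the more strongly expressed genes, with a random spread independent between libraries. Recovery of weakly expressed genes and the shared shift of the libraries that stand apart were therefore not simulated.

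All members are named. Of the other lipid lists the text names, per comparison, the called genes with the largest differences, up to 3 per list, and Sc5d whatever its values; some genes that this rule takes are not reported here. The members and lists were chosen with earlier results of these data known. Replicate numbers follow the order of the samples and pair nothing. Shared 31-base words and exon overlaps came from GENCODE M21, chromosomes and promoters from RefSeq GRCm38.p6; the files use mm9, so the GRCm38.p6 coordinates belong to the promoter windows alone and to no measured value. Protein sequences were not used here.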

Additional observations from a re-analysis of the deposited data

How the results depend on the processing

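Calls of members were compared over 14 alternatives and 9 fits that each left out 1 library; 13 of the alternatives were planned, and averaging the close libraries was chosen after seeing the data. Counts of called members stayed within 1.5 times in all of them. Over the left-out libraries the fatty acid branch had 5 to 8 called members in EPSCM against ES, with 5 without ES replicate 1, and the other 5 branch counts did not change. Members passing the F test were 31 or 32 over the left-out libraries, and 27 with the close libraries averaged. Requiring a mean of 5 FPKM, which tests 8478 genes, gave 1532, 1025 and 1055 called genes for EPSCM over ES, EPSCM over 2iLIF, and 2iLIF over ES, against 2423, 1979 and 1817, and 7 rather than 16 other lipid genes in EPSCM against 2iLIF. With a pseudocount of 0.1, 2738 genes were called in 2iLIF against ES. Changes of sign were seen only among differences that were not called, and their cause was not tested. In EPSCM against ES these were Acacb at -0.113 with quantile normalization, and Nsdhl at -0.0025 and Mvd at -0.0678 at the same median ratio, with Mvk at 0.016 at the same sum; over left-out libraries Idi1 ran from -0.3574 to 0.0695, Mvd from -0.0515 to 0.13, Mvk from -0.1375 to 0.0802 and Nsdhl from -0.0054 to 0.2422. In EPSCM against 2iLIF, Sqle was at -0.0151 at the same sum, -0.0478 at the same median ratio and -0.0173 with close libraries averaged; Fdft1, Pmvk and Fads2 were at 0.0595, 0.044 and 0.0704 with quantile normalization, Fdft1 and Pmvk at 0.0123 and 0.0356 with the close libraries alone and at 0.034 and 0.0316 with array weights; over left-out libraries Sqle ran from -0.0206 to 0.0399, Fdft1 from -0.0494 to 3e-04, Pmvk from -0.0647 to 0.0804, Fads2 from -0.0703 to 0.0661 and Sc5d from -0.1307 to 0.2579. In 2iLIF against ES, Acaca was at -0.0341 and Dhcr7 at 0 with quantile normalization, Dhcr7 and Thrsp at -0.0351 and -5e-04 at the same median ratio, and Dhcr7 at -0.0117 with the close libraries alone; over left-out libraries Dhcr7 ran from -0.066 to 0.0669 and Thrsp from -0.0406 to 0.0977. Scaling moved the median of all tested genes by less than 0.1 in size. No paired analysis was possible because the labels give the libraries of different media no shared numbers. With the libraries that stand apart taken as a covariate, all 102 comparisons of members kept their sign and their call. With 3 libraries a medium, calls near the fold limit depend on single libraries, as for Fasn and Acsl3.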

Other observations

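In fatty acid oxidation, the pathway that burns what the fatty acid branch makes, 6 of 15 tested genes were higher and 0 lower in EPSCM against ES. Of all tested genes 11.7% were higher and 7.97% lower in that comparison, 19.7% in either direction. Slc25a20, the carnitine carrier of the inner mitochondrial membrane, had 61.8, 62.7 and 60.4 FPKM in EPSCM, 50.3, 48.6 and 48.3 in 2iLIF and 10.6, 9.17 and 9.63 in ES, with 2.54 ± 0.06 for EPSCM against ES and 2.22 ± 0.06 for 2iLIF against ES (adjusted p = 5.34e-09 and adjusted p = 7.02e-09). Cpt1a, which loads chains on carnitine and is restrained by malonyl-CoA, was at 95.5 ± 1.37 FPKM in EPSCM, 70.7 ± 0.4197 in 2iLIF and 21.2 ± 0.308 in ES and was called in the same comparisons (2.12 ± 0.04 and 1.69 ± 0.04). Hadh, a dehydrogenase of the cycle, was at 219 ± 7.07 FPKM in EPSCM, 78.4 ± 2.96 in 2iLIF and 52.4 ± 2.68 in ES and was called in EPSCM against both ES (2.05 ± 0.06) and 2iLIF (1.47 ± 0.06). Cpt1b, the muscle form of the transferase Cpt1a, was higher in EPSCM than in 2iLIF (1.17 ± 0.098) and than in ES (1.58 ± 0.098). Of the 15 genes, 2 were higher and 0 lower in EPSCM against 2iLIF, and also 2 and 0 in 2iLIF against ES. Each count is 13.3% of the list, below the 16.1% and 14.7% of all tested genes called in these comparisons.

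Of 15 tested genes of glycerolipid synthesis and storage, 3 were higher and 0 lower in EPSCM against ES. In EPSCM against 2iLIF 1 was higher and 0 lower, and in 2iLIF against ES 2 were higher and 2 lower. These are 20%, 6.67% and 26.7% of the list, where 19.7%, 16.1% and 14.7% of all tested genes were called. Plin2, which coats lipid droplets, had 44.6, 54.3 and 45.9 FPKM in EPSCM, 52.1, 44.9 and 43.6 in 2iLIF and 11.6, 10.4 and 10.5 in ES. Its EPSCM and 2iLIF libraries overlapped and lay 4.45-fold and 4.32-fold above ES (2.05 ± 0.09, adjusted p = 1.64e-07, and 2.01 ± 0.09, adjusted p = 1.90e-07). Lpcat3, which places polyunsaturated chains in phospholipids, was at 50.7 ± 1.51 FPKM in EPSCM, 61.3 ± 0.374 in 2iLIF and 23.6 ± 0.258 in ES and was called in 2iLIF against ES (1.34 ± 0.04) and in EPSCM against ES (1.07 ± 0.04), the second lost when libraries were scaled to the same median ratio (0.98). Agpat3, an acyltransferase of phospholipid synthesis, was higher in EPSCM than in ES (1.27 ± 0.11). Dgat2, which closes triglyceride synthesis, ran the other way at 5.06 ± 0.566 FPKM in EPSCM, 1.94 ± 0.269 in 2iLIF and 6.71 ± 0.561 in ES and was lower in 2iLIF than in ES (-1.39 ± 0.098, adjusted p = 2.40e-06) and higher in EPSCM than in 2iLIF (1.04 ± 0.098), a call lost with quantile normalization (0.85), at the same median ratio (0.996) and without EPSCM replicate 2 or 2iLIF replicate 2 (0.98 in both).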
